A study of Mus musculus with 15 samples.

Results

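The genes of the MHC class I pathway, which shows fragments of a cell's own proteins to CD8 T cells and NK cells, were followed in mouse leukemic T cells. The set holds 31 genes of the 39827 read from the count table, picked by symbol from a list of names. That list was chosen with earlier results of these data known. By role they are the classical heavy chains H2-K1 and H2-D1, the light chain B2m, 13 other heavy chains of the H2 complex (H2-Q1, H2-Q2, H2-Q4, H2-Q6, H2-Q7, H2-Q10, H2-T3, H2-T10, H2-T22, H2-T23, H2-T24, H2-M2 and H2-M3), and the class I-like genes Cd1d1 and Mr1. The others are Tap1, Tap2, Tapbp, Tapbpl, Canx and Pdia3 of peptide transport and loading, Psmb8, Psmb9, Psmb10, Psme1 and Psme2 of the immunoproteasome, the trimming peptidase Erap1 and the transactivator Nlrc5. All 31 were found and all 31 passed the filter on low counts.

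The libraries were 15, with 3 in each of 5 groups, made by stranded mRNA sequencing of spleen leukemic T cells. Bone marrow progenitors sorted as GFP+Lineage-cKit+Sca1+ carried ΔE-NOTCH1, an active form of the receptor NOTCH1, and grew into leukemias in lethally irradiated C57BL/6J hosts. The groups were the Bcat1 knock-out leukemias KO3 and KO7, the Bcat1 wild-type leukemia WT6, and the wild-type leukemia WT0 given ERG-245 or PBS. ERG-245 inhibits BCAT1, an aminotransferase for branched-chain amino acids, and mice got 3 intraperitoneal injections of it (30 mg per kg) with 8 h between them. The labels give PBS as treatment of KO3, KO7 and WT6 too, whereas the alignment names of the 3 WT0 vehicle libraries contain DMSO. Each knock-out group is 1 leukemia number, and whether its 3 libraries are 3 mice is not said. A p-value between groups thus weighs a difference only against the scatter of libraries, which may be technical, and a difference between 2 leukemias is not by itself one of genotype.

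Class I molecules are built in the endoplasmic reticulum. Proteasomes cut cytosolic proteins, and in immune cells the inducible subunits Psmb8, Psmb9 and Psmb10 replace the constitutive Psmb5, Psmb6 and Psmb7. The transporter Tap1-Tap2 carries the peptides inward, Erap1 trims them, and tapasin (Tapbp) with Pdia3 loads them on a heavy chain paired with B2m. Interferons raise most of these genes, and Nlrc5 acts at the promoters of many of them. Class I genes are expressed by nearly all nucleated cells, and in bulk libraries fewer cells of a type and less RNA per cell cannot be told apart.

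Libraries held 17441292 to 28902573 counts. Bcat1 stood at 6.95 ± 0.845 CPM in KO3 and 2.09 ± 0.596 CPM in KO7, against 35.2 ± 0.416 CPM in WT6 (SD, n = 3 each; CPM are counts scaled by the TMM-adjusted library total). It stood at 13.3 ± 0.774 CPM in WT0 with ERG-245 and 17.8 ± 0.955 CPM in WT0 with PBS. The leading T cell receptor beta segment differed in every group. Trbv16 led with 49.9% of such counts in WT0 with ERG-245 (4.92% with PBS), and Trbv17 led with 39.7% in WT0 with PBS (0.93% with ERG-245). The inhibitor and this difference in the leading segment cannot be told apart. All 11 T cell markers were detected in every group, at a summed 0.305% to 0.567% of counts as group means.

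Many H2 genes lie side by side on chromosome 17 and share stretches of sequence, so reads can be lost or split among them. Of the 50-base stretches of its transcripts, H2-T22 shared 34.5%, H2-T10 32.9%, H2-Q6 32.0% and H2-Q7 26.4% with other genes, above all with others of the H2 complex. Psme2 shared 28.3% with Psme2b and Cd1d1 19.1% with Cd1d2. H2-D1 shared 12.8% and H2-K1 9.63%. For Nlrc5, B2m, Mr1, Psmb9, Psmb10, Erap1, Canx and Pdia3 the share was 0%. Levels of the H2 genes, Psme2 and Cd1d1 are uncertain to that extent.

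The promoters of the heavy chains show their kinship. RefSeq (GRCm38.p6) gave 300-base start windows, 250 bases before and 50 after the start, for 24 of the 31 genes (26 windows). The kappa B motif GGGANTNNC, searched on both strands, stood in the windows of 11 of these 24 genes, which is 46.2% of the 26 windows against 14.0% of all 32851 windows. The interferon-stimulated response element core GAAANNGAA stood in 5 genes (B2m, Erap1, H2-T22, H2-T23 and Psme1; 19.2% of windows against 8.56%). The GAS motif TTCNNNGAA stood in H2-M3 and Psmb8 (7.69% against 8.30%). In these windows 0 matches of different motifs overlapped. A match is a description of letters, not a site. The stretches shown, in gene direction, let the classical, Q and M genes and B2m be compared, and the capitals mark GGGANTNNC on either strand.

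H2-K1 (chr17:34000418-34000477, minus): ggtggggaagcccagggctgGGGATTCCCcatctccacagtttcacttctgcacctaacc
H2-D1 (chr17:35262904-35262963, plus): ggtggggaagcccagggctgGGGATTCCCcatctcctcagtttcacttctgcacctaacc
H2-Q6 (chr17:35424658-35424717, plus): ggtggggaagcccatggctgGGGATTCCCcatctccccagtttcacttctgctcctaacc
H2-Q7 (chr17:35439003-35439062, plus): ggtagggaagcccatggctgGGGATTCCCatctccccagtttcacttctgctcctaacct
H2-Q4 (chr17:35379424-35379483, plus): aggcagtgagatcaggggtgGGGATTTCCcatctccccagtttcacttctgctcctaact
H2-M3 (chr17:37270089-37270148, plus): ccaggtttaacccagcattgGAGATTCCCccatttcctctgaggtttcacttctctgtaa
H2-M2 (chr17:37483694-37483753, minus): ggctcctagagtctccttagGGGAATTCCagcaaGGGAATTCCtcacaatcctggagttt
B2m (chr2:122147542-122147601, plus): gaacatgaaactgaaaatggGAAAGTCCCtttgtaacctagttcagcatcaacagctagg

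The matches in H2-K1 and H2-D1 are the same 9 letters in nearly the same surroundings, 124 and 170 bases before the starts of the windows used. In another RefSeq window of H2-K1 the match lies 110 bases before the start. The H2-K1 gene in the count table reaches further upstream, to 34000619, so the stretch shown lies inside it. H2-M2 shows the motif in 2 copies in its stretch. Against WT6, H2-K1 and H2-D1 had similar log2 fold changes in KO3 (-0.40 and -0.35) and different ones in KO7 (-0.62 and -0.05). That of H2-D1 in KO7 did not pass. The part of these letters in the levels was not tested.

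B2m was by far the most abundant of the genes per length, at a mean of 1546 FPKM over the 5 groups (CPM divided by exon length in kilobases). H2-D1 followed with 315 FPKM, Psmb8 with 241, Psme1 with 199.5, Pdia3 with 191 and H2-K1 with 176 FPKM. At the low end stood Nlrc5 with 5.13 FPKM, H2-M2 with 5.02, H2-Q1 with 4.61 and H2-Q10, the secreted heavy chain best known from liver, with 0.725 FPKM. Together the 31 genes took 0.623% of counts in KO3, 0.619% in KO7, 0.693% in WT6, 0.524% in WT0 with ERG-245 and 0.476% in WT0 with PBS.

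WT0 with PBS was the lowest of the 5 groups for 20 of the 31 genes (64.5%), whereas it was the lowest for 21.1% of all genes tested. WT6 was the highest for 11 of them (35.5%, against 23.2% of all genes), among them both classical heavy chains and B2m. KO3 was the highest for 10 (32.3%, against 16.6%), among them Nlrc5, Tap1 and all 5 immunoproteasome genes. The range was moderate. The median ratio of the highest to the lowest group was 1.57 for the 31 genes and 1.74 for all genes tested. Of the 124 pairs of groups next to each other in these orders, 39 did not pass the test, and for 8 genes all 4 neighbouring pairs passed. Passing does not mean that libraries did not overlap, as H2-T10 in KO7 and WT6 shows. The same count over all genes tested was not made.

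**Figure D1:**
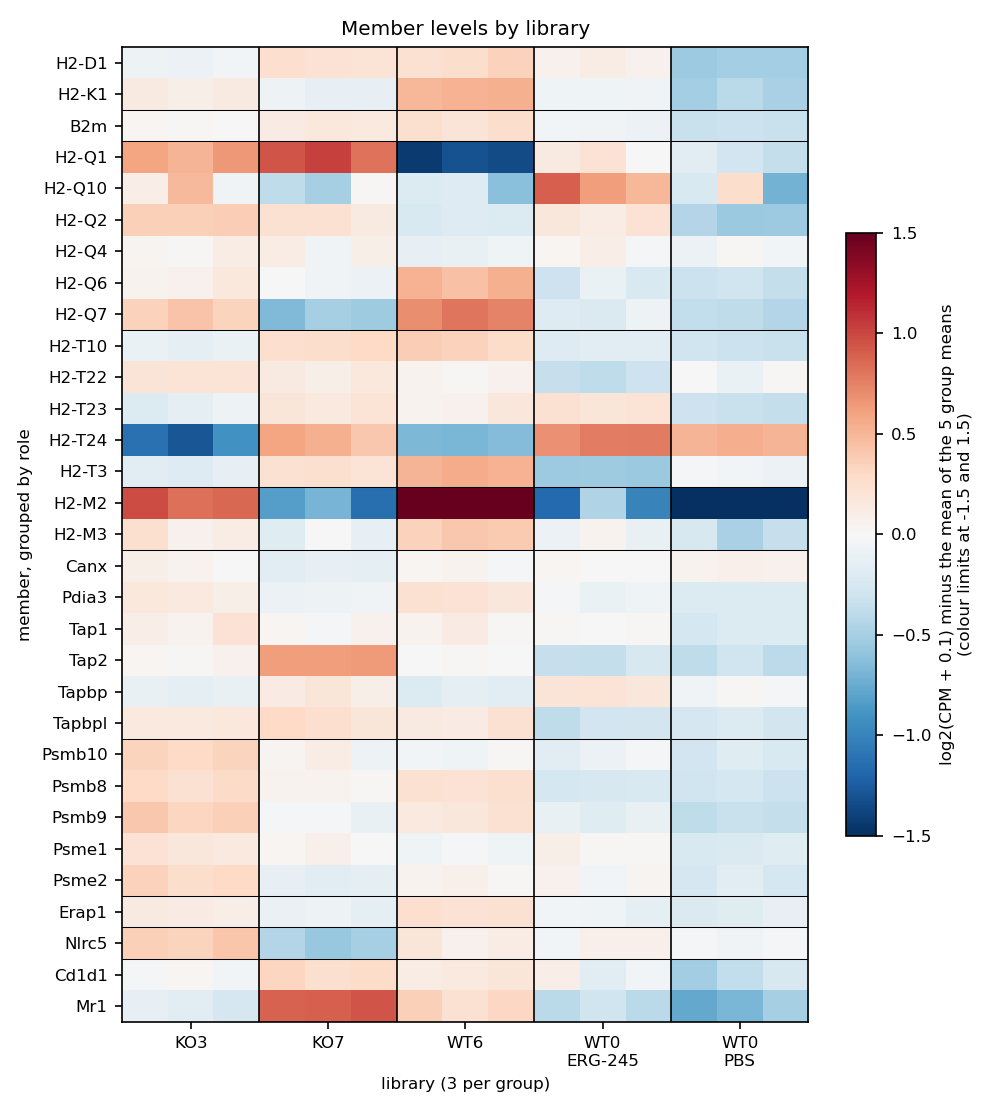
Level of each of the 31 genes (rows, grouped by role) in each of 15 libraries (columns, 3 per group), as log2(CPM + 0.1) minus the mean of the 5 group means, with colours limited to -1.5 and 1.5. The WT0 libraries with PBS are blue for 20 genes where they are the lowest group, and libraries of 1 group look alike.

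H2-K1 (chr17:33996012-34000619 of GRCm38.p6, minus strand) is a classical heavy chain. It had 461, 447 and 462 CPM in KO3, 399, 387 and 388 CPM in KO7, and 594, 607 and 611 CPM in WT6. Its levels were 402, 403 and 407 CPM in WT0 with ERG-245 and 296, 319 and 300.2 CPM in WT0 with PBS. All WT6 libraries lay above all others and all PBS libraries below. KO7 and WT0 with ERG-245, which differ in genotype and treatment, came out next to each other and did not pass the test between them (adjusted p = 0.0906 by edgeR's quasi-likelihood test).

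H2-D1, the other classical heavy chain (chr17:35263094-35267497 of GRCm38.p6, plus strand), had 511, 505 and 522 CPM in KO3, 642, 626 and 621 CPM in KO7, and 630.1, 645 and 681 CPM in WT6. WT0 with ERG-245 had 562, 579 and 560 CPM, against 369, 377 and 377 CPM in WT0 with PBS. KO7 and WT6 overlapped, KO3 lay below both, and the PBS libraries were again the lowest.

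B2m (chr2:122147687-122153082 of GRCm38.p6, plus strand) is the light chain without which most class I molecules do not reach the surface. It had 1345, 1336 and 1317 CPM in KO3, 1438, 1466 and 1457 CPM in KO7, and 1551, 1498 and 1576 CPM in WT6. It had 1277, 1266 and 1234 CPM in WT0 with ERG-245 and 1044, 1051 and 1041 CPM in WT0 with PBS. The 5 groups were fully apart from each other, in this falling order of WT6, KO7, KO3, WT0 with ERG-245 and WT0 with PBS. Per length, B2m stood several times above either classical heavy chain in each group.

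Tap1, a subunit of the peptide transporter (chr17:34187556-34197225 of GRCm38.p6, plus strand), had 111, 107 and 121 CPM in KO3, 106, 103 and 109 CPM in KO7, and 108, 113 and 105 CPM in WT6. It had 105, 104 and 105 CPM in WT0 with ERG-245, against 86.3, 90.4 and 90.0 CPM in WT0 with PBS. The PBS libraries lay below the other 12. KO7 and WT6 overlapped with KO3 and with WT0 with ERG-245, whereas KO3 lay above WT0 with ERG-245. The immunoproteasome subunit Psmb8 (chr17:34198195-34201454 of GRCm38.p6, plus strand) had 358, 342 and 354 CPM in KO3, 301, 300.3 and 294 CPM in KO7, 342, 338 and 342 CPM in WT6, 242, 246 and 248 CPM in WT0 with ERG-245 and 235, 243 and 233 CPM in WT0 with PBS. For Psmb8 both WT0 groups lay below KO3, KO7 and WT6.

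Psmb9, another immunoproteasome subunit (chr17:34182030-34187330 of GRCm38.p6, minus strand), had 112, 106 and 108 CPM in KO3, 83.6, 83.5 and 78.3 CPM in KO7, and 93.3, 95.4 and 99.4 CPM in WT6. WT0 with ERG-245 had 78.3, 74.3 and 78.0 CPM, against 64.7, 67.1 and 65.7 CPM in WT0 with PBS. Psmb9 and Tap1 are divergent neighbours whose first bases lie at 34187330 and 34187556 of chromosome 17, with 225 bases between them. That start region is printed once, as the RefSeq window of Tap1, because both genes face it. The capitals mark the 225 bases between the 2 starts.

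Tap1 (chr17:34187306-34187605, plus): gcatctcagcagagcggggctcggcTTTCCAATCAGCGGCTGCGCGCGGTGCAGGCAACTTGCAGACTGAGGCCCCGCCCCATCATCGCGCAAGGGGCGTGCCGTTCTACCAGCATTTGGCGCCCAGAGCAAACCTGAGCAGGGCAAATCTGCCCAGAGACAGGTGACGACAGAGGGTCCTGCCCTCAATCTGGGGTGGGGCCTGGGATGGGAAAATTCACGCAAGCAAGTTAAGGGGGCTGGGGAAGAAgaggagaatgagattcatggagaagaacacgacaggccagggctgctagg

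None of the 3 motifs as spelled was found in this window. With ERG-245 both neighbours were higher than with PBS by nearly the same amount (log2 0.24 for Tap1 and 0.22 for Psmb9). In KO7, as compared with WT6, Psmb9 fell (log2 -0.23, SE 0.04) and Tap1 had a log2 of -0.04 and did not pass. Scaled by library totals only, Tap1 passed there as well (log2 -0.11, adjusted p = 0.00455 by edgeR).

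Nlrc5, the class I transactivator (chr8:94434335-94527272 of GRCm38.p6, plus strand), had 51.1, 50.4 and 53.2 CPM in KO3, 29.4, 26.9 and 28.2 CPM in KO7, and 45.1, 41.7 and 43.2 CPM in WT6. It had 38.8, 42.1 and 42.0 CPM in WT0 with ERG-245 and 39.5, 38.5 and 39.4 CPM in WT0 with PBS. KO3 lay above all other libraries and KO7 below all. The 2 knock-out leukemias thus stood at opposite ends for this gene. Of the other genes given here per library, H2-K1 (log2 0.22), Tap1 (0.10), Psmb8 (0.23) and Psmb9 (0.41) were also higher in KO3 than in KO7, and H2-D1 (-0.30) and B2m (-0.13) were lower. Tap1 did not pass there with DESeq2 (0.09), nor without KO7 replicate 2 (0.08) or KO3 replicate 3 (0.05).

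**Figure D2:**
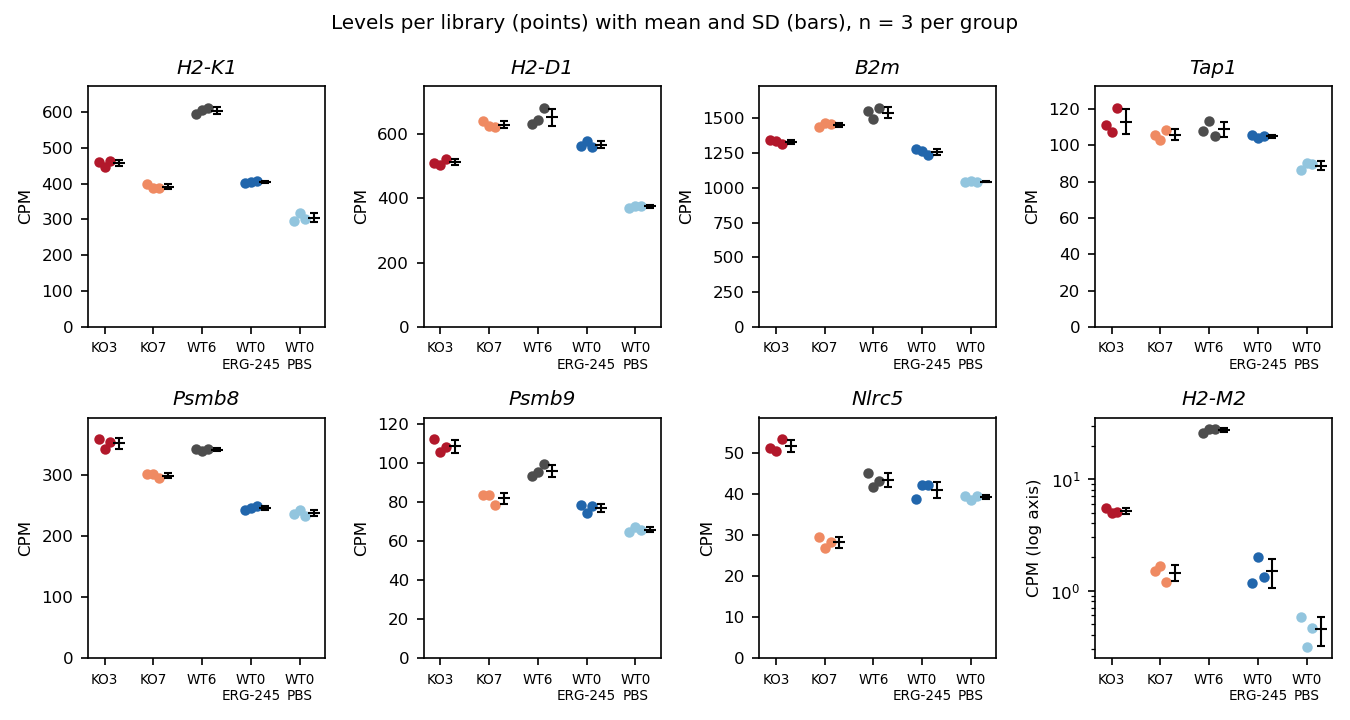
CPM (vertical axes from 0, except the log axis of H2-M2) of 8 genes in the 15 libraries (points), with mean and SD (bars, n = 3). H2-K1, H2-D1, B2m, Tap1 and Psmb9 were lowest in WT0 with PBS, Nlrc5 lowest in KO7, and H2-M2 reached 26.1 to 28.2 CPM in WT6 alone.

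To evaluate inhibition of BCAT1 in a leukemia with intact Bcat1, WT0 with ERG-245 was compared with WT0 with PBS. Of the 31 genes, 22 were higher and 3 lower at an adjusted p under 0.05, where 33% of the 15948 genes tested were higher and 32.8% lower. Their median log2 fold change was 0.22, against -0.00 over all genes tested. The changes were small: among the 31 genes 1 passed at 2-fold or more, H2-M2, where 11.7% of all genes did in either direction. H2-M2, a heavy chain of the M region, stood at 1.49 ± 0.433 CPM with ERG-245, against 0.449 ± 0.135 CPM with PBS (log2 1.72, SE 0.30), few counts in either group.

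Where both groups together averaged 5 CPM or more, heavy chains had the 6 largest changes. H2-Q2 stood at 109, 105 and 112 CPM with ERG-245, against 71.3, 65.5 and 66.3 CPM with PBS (log2 0.68, SE 0.04, adjusted p = 3.29e-28 by edgeR). H2-D1 rose by log2 0.60 (SE 0.02), H2-K1 by 0.41 (SE 0.02) and B2m by 0.27 (SE 0.02). H2-T23, which makes the Qa-1 molecule read by the inhibitory receptor CD94-NKG2A, stood at 163, 157 and 160.3 CPM with ERG-245 and 112, 110.3 and 108 CPM with PBS. For H2-Q2, H2-D1, H2-K1 and H2-T23 alike, every treated library lay above every PBS library. H2-Q1 rose too (log2 0.38, SE 0.09), to 14.0, 14.8 and 12.7 CPM with ERG-245, against 11.3, 10.45 and 9.93 CPM with PBS.

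Not every heavy chain followed. H2-T3, the thymus leukemia antigen that binds CD8αα, was lower with ERG-245, at 104, 105 and 104 CPM, against 149, 148 and 143 CPM with PBS (log2 -0.49, SE 0.03, adjusted p = 1.23e-24 by edgeR). H2-T22, which γδ T cell receptors can bind, was lower as well (log2 -0.32, SE 0.03). H2-T10, with which H2-T22 shares much sequence, was slightly higher (log2 0.14, SE 0.03), and RefSeq lists it as a transcribed pseudogene. H2-T24 was higher by 0.22 (SE 0.05) and the scarce H2-Q10 by 0.88 (SE 0.28). The Qa-2 gene H2-Q7 rose (log2 0.23, SE 0.06), and H2-Q6 (log2 0.12) and H2-Q4 (log2 0.07) did not pass.

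Of the genes that present other ligands, Cd1d1, which shows lipids to NKT cells, was higher by log2 0.35 (SE 0.06). Mr1, which shows riboflavin metabolites to MAIT cells, was higher by 0.29 (SE 0.06), and H2-M3, which shows N-formyl peptides, by 0.31 (SE 0.07). The trimming peptidase Erap1 rose by log2 0.10 (SE 0.03), with the groups overlapping. The loading genes Tap1 (log2 0.24), Tapbp (0.21) and the disulfide isomerase Pdia3 (0.14) rose, the chaperone Canx fell (-0.06), and Tap2 (0.05) and the editor Tapbpl (-0.07) did not pass. Psme1 and Psme2, the 2 chains of the PA28 activator, rose by log2 0.25 each and Psmb9 by 0.22. Psmb10 rose by 0.14, and Psmb8 had 0.05 and did not pass, though it did without WT0 PBS replicate 2 (log2 0.06). Nlrc5 did not pass either (log2 0.07, SE 0.05, adjusted p = 0.234 by edgeR).

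Proteasome genes outside the 31 were higher as well. The list of them has 17 genes, of which only Psmb5, Psmb6 and Psmb7 are the constitutive counterparts named above. All 17 rose with ERG-245 (median log2 0.40, against 0.22 for the 31 genes), among them Psma7 (0.59) and Psmb4 (0.61). The ratio per length of Psmb8 to the subunit it replaces, Psmb5, was 1.88, 1.87 and 1.89 with ERG-245, against 2.38, 2.46 and 2.44 with PBS. The ratio of Psmb9 to Psmb6 was 0.392 ± 0.0128 with ERG-245 and 0.473 ± 0.0188 with PBS, and that of Psmb10 to Psmb7 was 0.343 ± 0.0122 with ERG-245 and 0.416 ± 0.0141 with PBS (SD, n = 3 each). All 3 ratios were lower in each treated library than in each PBS library (two-sided exact permutation p = 0.1 each, the smallest that 3 against 3 allows).

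**Figure D3:**
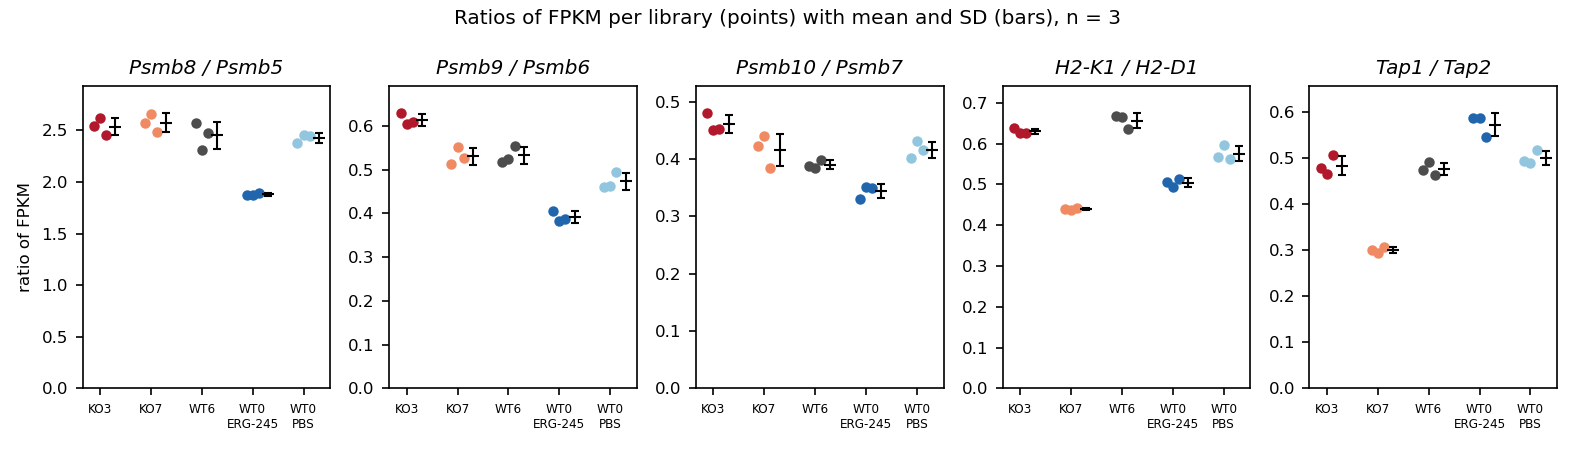
Ratio of FPKM (vertical axes from 0) of 3 immunoproteasome subunits to the constitutive subunits they replace, of H2-K1 to H2-D1 and of Tap1 to Tap2, per library (points) with mean and SD (bars, n = 3). Psmb8 to Psmb5 was 1.88 in WT0 with ERG-245 against 2.43 with PBS, and KO7 had the lowest ratios of H2-K1 to H2-D1 (0.440) and of Tap1 to Tap2 (0.300).

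Interferon-stimulated genes were higher in 16 of 20 and lower in 0 with ERG-245 (median log2 0.60), with Ifit1, an antiviral RNA-binding protein, at log2 2.13 (SE 0.06) and Ifi35 at 1.69 (SE 0.05). Of the regulators of class I genes, activators and repressors together, 3 of 19 were higher and 13 lower. Rfx5, a subunit of the RFX complex that binds class I and II promoters, fell (log2 -0.77, SE 0.05), as did Nfya (-0.47) and Irf2 (-0.49). Suz12 of the Polycomb complex rose (0.31). Related genes did not follow. Eed of the same complex had 60.3 ± 2.34 CPM with ERG-245 and 73.2 ± 2.51 CPM with PBS, and Ezh2 216 ± 4.42 and 230 ± 6.49 CPM. Nfyb had 67.2 ± 1.72 CPM with ERG-245 and 65.7 ± 1.24 CPM with PBS, and Nfyc 70.9 ± 2.01 and 70.0 ± 2.12 CPM. Among interferons, receptors and kinases 7 of the 10 tested were higher and 1 lower. Interferon gamma (Ifng) stood at 0.451 ± 0.0888 CPM with ERG-245 and 0.137 ± 0.111 CPM with PBS, and did not pass the filter on low counts. Other heavy chains and class I-like genes were split, with 3 of 10 tested higher and 4 lower.

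Markers of other spleen cells also differed between these libraries. With ERG-245 the 9 B and plasma cell markers summed to 0.329% to 0.336% of counts, against 0.131% to 0.133% with PBS. Single members of this list did not follow its sum: 4 were higher and 5 lower with ERG-245 (median log2 -0.33). The 5 MHC class II markers were all lower, with 0.0245% to 0.0248% with ERG-245 and 0.0456% to 0.0460% with PBS. As means over WT0 with ERG-245, T cell markers took 0.305%, macrophage 0.151%, erythroid 3.59%, NK cell 0.0315%, stromal 0.0338% and platelet markers 0.0039%. Over WT0 with PBS, T cell markers took 0.388%, macrophage 0.115%, erythroid 3.11%, NK cell 0.0393%, stromal 0.0459% and platelet markers 0.0174%. The stromal and NK cell sums were lower with ERG-245, although 5 of 6 stromal markers were higher and 1 lower (median log2 0.30), and 3 of 6 NK cell markers tested were higher and 2 lower (0.53). Of the T cell markers 4 of 11 were higher and 6 lower, of the macrophage markers 7 of 10 higher and 1 lower, of the erythroid 8 of 9 higher and 0 lower, and of the platelet markers 0 of 6 higher and 6 lower. Neutrophil markers took 0.000342% with ERG-245 (Ly6g at 0) and 0.0069% with PBS. Dendritic cell markers took 0.0035% with ERG-245 (Cd209a at 0) and 0.00421% with PBS, and the NK cell marker Ncr1 was at 0 with PBS. Their part in the class I differences was not tested.

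For the effect of Bcat1 loss, KO7 and KO3 were each set against WT6. Both comparisons share the WT6 libraries. In KO7, 12 of the 31 genes were higher and 15 lower, where 32.2% of all genes tested were higher and 36.7% lower. Scaled by library totals only, 7 were higher. Their median log2 fold change was -0.05, against -0.03 over all genes. In KO3, 9 were higher and 15 lower, where 27.7% of all genes were higher and 32% lower, with medians of -0.01 and -0.02. At 2-fold or more, 2 genes were higher and 2 lower in KO7 (17.5% of all genes in either direction), and 1 was higher and 1 lower in KO3 (11.5% of all genes).

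Both knock-out leukemias had less H2-K1, B2m and H2-M2 than WT6, and more H2-Q1. Also lower in both were H2-Q6, H2-Q7, H2-T3, H2-T10, H2-M3, Erap1 and Pdia3, and also higher in both were H2-Q2, H2-Q4, H2-T22 and Psme1. H2-K1 had a log2 fold change of -0.62 in KO7 (SE 0.02, adjusted p = 5.47e-38 by edgeR) and of -0.40 in KO3 (SE 0.02). That of B2m was -0.08 in KO7 and -0.21 in KO3 (SE 0.02 each). H2-D1 was lower in KO3 (log2 -0.35, SE 0.02), whereas in KO7 it had -0.05 and did not pass (adjusted p = 0.051 by edgeR). It passed in KO7 without WT6 replicate 1 (log2 -0.07), WT6 replicate 2 (-0.06) or KO7 replicate 1 (-0.06), and with library totals only it was lower by more (log2 -0.12, adjusted p = 7.93e-06 by edgeR).

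H2-Q1 and H2-M2 stood furthest apart. H2-Q1 had 19.2, 18.2 and 19.98 CPM in KO3 and 24.6, 26.1 and 22.5 CPM in KO7, against 4.66, 5.07 and 4.96 CPM in WT6 (log2 1.97 in KO3 and 2.32 in KO7, SE 0.09 each). H2-M2 had 5.53, 4.95 and 5.08 CPM in KO3 and 1.51, 1.65 and 1.19 CPM in KO7, against 26.1, 28.2 and 27.9 CPM in WT6 (log2 -2.40 in KO3, SE 0.09, and -4.23 in KO7, SE 0.12). For both genes each knock-out library lay outside the range of WT6, and WT0 with PBS, a wild-type leukemia, lay on the side of the knock-outs with 11.3, 10.45 and 9.93 CPM of H2-Q1 and 0.577, 0.309 and 0.462 CPM of H2-M2. H2-M5, another M region gene from the list of other heavy chains, was likewise highest in WT6, at 2.32 ± 0.337 CPM, against 0.684 ± 0.213 CPM in KO3 and 0.187 ± 0.146 CPM in KO7.

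Further large changes against WT6 were seen in KO7. In KO3, of the same genes, H2-Q7 (log2 -0.38) and H2-T24 (-0.43) were lower than in WT6, and Tap2 (0.03) did not pass. H2-Q7 fell to 21.8, 24.5 and 23.8 CPM in KO7, against 56.2, 60.4 and 57.7 CPM in WT6 (log2 -1.32, SE 0.05). H2-T24 stood at 60.4, 58.0 and 53.0 CPM in KO7, against 25.1, 25.02 and 25.5 CPM in WT6 (log2 1.18, SE 0.05). Tap2, the partner of Tap1, stood at 298, 297 and 299.6 CPM in KO7, against 192, 195 and 192 CPM in WT6 (log2 0.63, SE 0.03), and each of these 3 genes was fully apart between the 2 groups. Proportions within pairs of related genes shifted with them. Per length, Tap1 to Tap2 was 0.300 ± 0.00686 in KO7 against 0.476 ± 0.0132 in WT6, H2-K1 to H2-D1 was 0.440 ± 0.00204 in KO7 against 0.656 ± 0.0181 in WT6, and H2-Q7 to H2-Q6 was 0.997 ± 0.084 in KO7 against 1.70 ± 0.115 in WT6 (two-sided exact permutation p = 0.1 each, the smallest possible).

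Of the 5 T region genes, 4 fell and 1, H2-T22 (log2 0.16), rose in KO3. H2-T3 had 135, 133 and 140 CPM in KO3, against 217, 224 and 218 CPM in WT6 (log2 -0.69, SE 0.03). H2-T10 had 277, 269 and 279 CPM in KO3, against 384, 379 and 359 CPM in WT6 (log2 -0.45, SE 0.02), and the groups of neither gene overlapped. Mr1 was lower at 37.7, 36.5 and 34.6 CPM in KO3, against 52.7, 48.4 and 50.9 CPM in WT6 (log2 -0.48, SE 0.05). H2-Q2 was higher at 123, 124 and 125 CPM in KO3, against 82.2, 84.7 and 84.1 CPM in WT6 (log2 0.57, SE 0.03). In KO7, H2-T3 (log2 -0.31), H2-T10 (-0.06) and H2-Q2 (0.41) passed in the same direction, and Mr1 (0.61) in the other. Of the 5 immunoproteasome genes, 4 rose in KO3 (Psmb10 by log2 0.35, Psme2 by 0.25, Psme1 by 0.23 and Psmb9 by 0.18), and Psmb8 (0.04) did not pass, though it did without KO3 replicate 2 (0.06). In KO7, 1 of these 5 rose, Psme1 (0.08), and 3 fell, Psmb8 (-0.19), Psmb9 (-0.23) and Psme2 (-0.19).

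The 2 knock-out leukemias also differed from each other in most of these genes. KO3, compared with KO7, had 17 genes higher and 12 lower, where 36.1% of all genes were higher and 34.6% lower. At 2-fold or more 1 was higher and 2 lower (19.6% of all genes in either direction). All 5 immunoproteasome genes were higher in KO3, and so were Nlrc5 (log2 0.87, SE 0.05), Erap1, the peptide trimmer (0.22, SE 0.03), and H2-Q7 (0.94, SE 0.06). Psme2 had 185, 175 and 180.4 CPM in KO3, against 134, 130 and 134 CPM in KO7 (log2 0.44, SE 0.03). H2-T24 was lower in KO3 at 18.4, 16.5 and 21.3 CPM, against 60.4, 58.0 and 53.0 CPM in KO7 (log2 -1.61, SE 0.06). Mr1 had 37.7, 36.5 and 34.6 CPM in KO3, against 76.2, 76.9 and 79.2 CPM in KO7 (log2 -1.09, SE 0.05), and Tap2 was lower too (log2 -0.59, SE 0.03). None of the groups overlapped in these 4 genes.

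Of interferon-stimulated genes, 14 of 20 were higher and 3 lower in KO7 than in WT6, with the antiviral enzyme Rsad2 at log2 2.17 (SE 0.03) and the ubiquitin-like Isg15 at 1.98 (SE 0.04). In KO3, 11 of 20 were higher and 3 lower, with the guanylate-binding protein Gbp2 at 0.92 (SE 0.05). Compared with KO7, KO3 had 5 higher and 12 lower, and its immunoproteasome genes were all higher. A link between these lists was not tested. Of the class I gene regulators, 8 of 19 were higher and 6 lower in KO7, with Irf9 at log2 0.89 and Nfkb1 at -0.69, and 2 were higher and 8 lower in KO3, with Irf1 at 0.34 and Nfkb1 at -0.30.

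Of the constitutive proteasome genes, 5 of 17 were higher and 4 lower in KO7, and 10 were higher and 2 lower in KO3. Genes of peptide supply and trimming had 2 of 10 higher and 7 lower in KO7, with the aminopeptidase Lnpep at log2 -1.10, and 6 higher and 2 lower in KO3. The ER lectin and folding genes fell in 5 of 8 in KO7 and 6 of 8 in KO3, with 1 higher in each. Other heavy chains and class I-like genes had 3 of 10 higher and 4 lower in KO7. Hfe, a regulator of iron uptake, stood at 0.95 and the neonatal Fc receptor Fcgrt at 0.71, whereas Ulbp1 stood at -0.93 and the scarce H2-M5 at -3.62. In KO3 this list had 2 higher and 5 lower. The interferon receptor and kinase genes had 3 of 10 higher and 5 lower in KO7 and 2 higher and 8 lower in KO3, with the receptor chain Ifngr1 at -0.48 in KO7 and -1.15 in KO3.

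**Figure D4:**
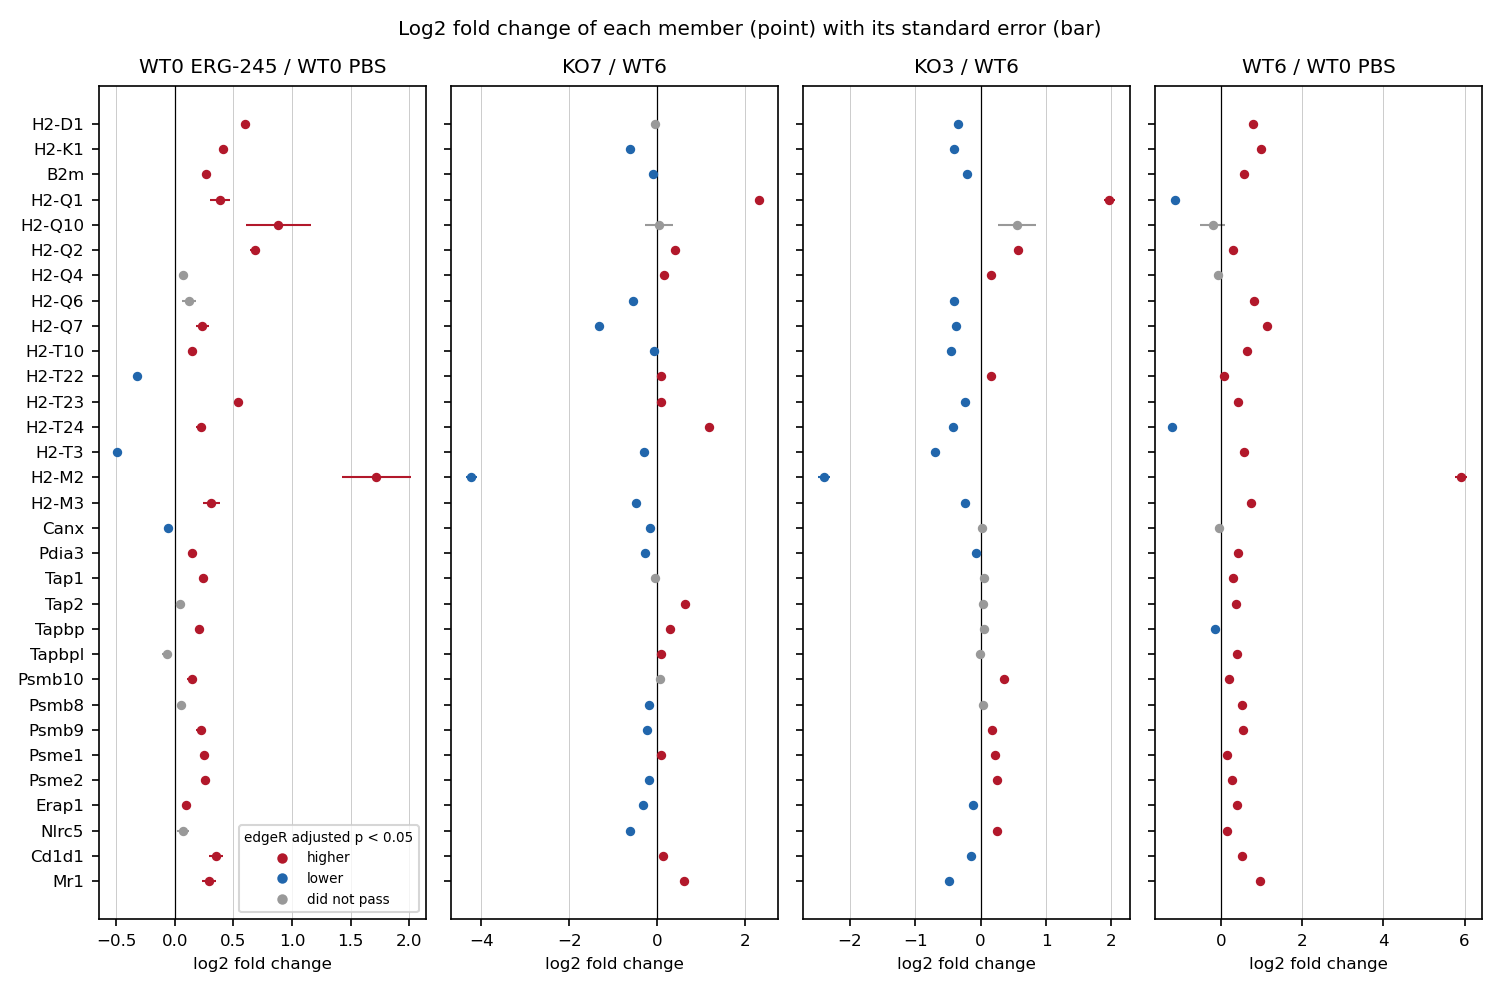
Log2 fold change (horizontal axes, each panel on its own scale) with standard error of the 31 genes (rows) in 4 comparisons, red where higher, blue where lower and grey where the adjusted p did not pass 0.05. With ERG-245 22 genes were higher and 3 lower, and in WT6, compared with WT0 with PBS, 25 were higher and 3 lower, with H2-M2 at 5.91.

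The 2 wild-type leukemias differed as well, with more class I RNA in WT6. WT6, compared with WT0 with PBS, had 25 of the 31 genes higher and 3 lower, where 36.8% of all genes were higher and 35.6% lower, with a median log2 of 0.41 against 0.00. At 2-fold or more 2 were higher and 2 lower (18.9% of all genes in either direction). H2-K1 was higher by log2 0.99 (SE 0.02), H2-D1 by 0.80 (SE 0.02) and B2m by 0.56 (SE 0.02). H2-M2 was higher by 5.91 (SE 0.15), H2-Q7 by 1.14 (SE 0.05) and Mr1 by 0.96 (SE 0.05), and H2-T24 (-1.20, SE 0.05) and H2-Q1 (-1.12, SE 0.10) were lower. Mr1 stood in WT0 with PBS at 24.1, 25.5 and 29.1 CPM, H2-T24 at 57.1, 58.8 and 57.4 CPM, and H2-Q7 at 26.8, 26.4 and 25.4 CPM, all apart from WT6. Of the interferon-stimulated genes 5 of 20 were higher and 11 lower, with Rsad2 at -2.32 and Isg15 at -1.73. The receptor chains Ifngr1 (1.73) and Ifngr2 (0.87) and the feedback inhibitor Socs1 (1.62) were higher, and the regulators had 6 of 19 higher and 8 lower.

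Against the same PBS libraries, which had the least class I RNA, both knock-outs were higher in most genes. KO7 had 26 higher and 3 lower (34.5% and 34.9% of all genes), with a median log2 of 0.28, and KO3 had 26 higher and 3 lower (34.1% and 32.4%), with a median of 0.40. Scaled by library totals only, 1 was lower in KO3. Mr1 had a log2 of 1.57 in KO7 (SE 0.05) and H2-T24 one of -1.62 in KO3 (SE 0.06). H2-M2 was higher by 1.68 in KO7 (SE 0.30) and 3.52 in KO3 (SE 0.22), over few counts in WT0 with PBS. H2-K1, lower than WT6 in both, was higher than WT0 with PBS by log2 0.36 in KO7 and 0.58 in KO3. Nlrc5 was lower than WT0 with PBS in KO7 (log2 -0.47, SE 0.05) and higher in KO3 (0.40, SE 0.05). Both comparisons and those of WT6 and of ERG-245 share the PBS libraries.

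When counts were summed per leukemia and KO7 and KO3 were compared with WT6 and WT0 with PBS, 0 of the 31 genes were higher and 0 lower by edgeR's quasi-likelihood test, where 0% of 17226 genes were higher and 0% lower. DESeq2 called 0 of the 31 as well (21 genes higher and 26 lower over all genes). Without an adjustment, 2 of the 31 genes had a p under 0.05 by edgeR, H2-Q2 (log2 0.65, SE 0.19) and H2-Q1 (1.51, SE 0.47), and 226 of all genes did. By DESeq2 1 of the 31 did. H2-K1 had a log2 of -0.08 with an SE of 0.37, H2-D1 0.18 with an SE of 0.34 and B2m 0.12 with an SE of 0.31. H2-K1 was above 0 without KO7 (0.031) or without WT6 (0.49), and H2-D1 (-0.16) and B2m (-0.12) were below 0 without WT0 with PBS. The biological coefficient of variation was 41.9% between leukemias of a genotype and 2.18% between libraries of a group.

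Transcripts of other spleen cells were not even among the leukemias. The 9 B and plasma cell markers summed to 0.292% to 0.297% of counts in KO3 and 0.406% to 0.412% in KO7, against 0.875% to 0.911% in WT6. Of these markers 0 were higher and 9 lower in KO3 than in WT6, and 1 was higher and 8 lower in KO7. Between the knock-outs the sum and its members differ in direction, with 8 of 9 markers higher and 1 lower in KO3 than in KO7 (median log2 1.05). The 5 MHC class II markers summed to 0.0646% to 0.0662% in KO3 and 0.0508% to 0.0529% in KO7, against 0.137% to 0.143% in WT6, and all 5 were lower in each knock-out. WT6, with the most H2-K1, B2m and H2-M2, had the highest shares of both lists, and also of T cell, neutrophil, dendritic cell and platelet markers. Erythroid and macrophage shares were highest in KO7, that of NK cell markers in KO3 and that of stromal markers in WT0 with PBS. In KO3, T cell markers took a mean of 0.514%, erythroid 0.908%, macrophage 0.156%, neutrophil 0.0182%, dendritic cell 0.00374%, NK cell 0.0463%, platelet 0.0161% and stromal markers 0.0415%. In KO7, T cell markers took 0.500%, erythroid 4.46%, macrophage 0.356%, neutrophil 0.0129%, dendritic cell 0.0047% (Siglech and Cd209a at 0), NK cell 0.0183%, platelet 0.0130% and stromal markers 0.0267%. In WT6, T cell markers took 0.567%, erythroid 0.986%, macrophage 0.206%, neutrophil 0.0339%, dendritic cell 0.00682%, NK cell 0.0458%, platelet 0.0195% and stromal markers 0.0383%. The part of these cells in the class I differences was not tested.

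**Figure D5:**
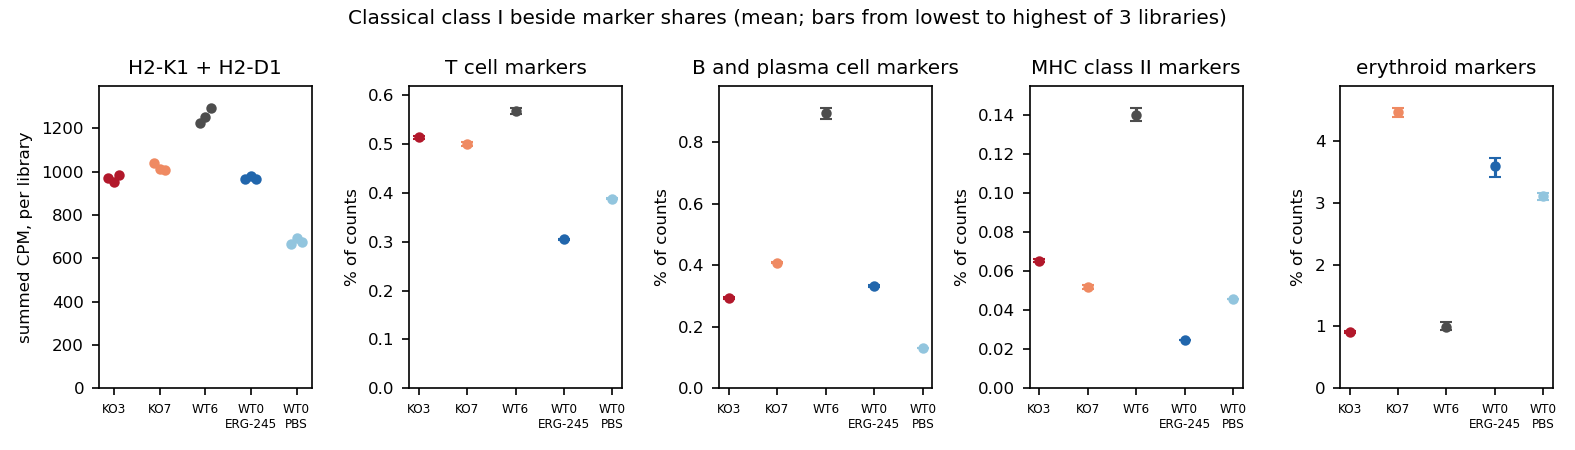
Summed CPM of H2-K1 and H2-D1 per library (left panel) beside the shares of counts of 4 marker lists (mean, bars from the lowest to the highest of 3 libraries; vertical axes from 0). WT6 was highest in the class I sum and in T cell (0.567%), B and plasma cell (0.895%) and MHC class II markers (0.140%). KO7 was highest in erythroid markers (4.46%). WT0 with ERG-245 had more class I RNA than WT0 with PBS but less MHC class II (0.0246% with ERG-245 against 0.0459% with PBS).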

How the data were processed

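RNA of 15 libraries was analysed from the deposited table of raw counts per gene. Those counts came, per the file headers, from featureCounts 2.0.1, run by the authors on paired fragments over RefSeq exons of GRCm38.p6, with strand setting 2, a minimum overlap of 25 bases and no option for multi-mapping reads. The submitters' processing notes also name Trim Galore, STAR, Subread, DESeq2 and mm10. The authors deposited each gene's merged exon length beside the counts (its other unit), used here for FPKM. Of 39836 lines, 9 were broken and left out (Neb, Mycbp2 and Huwe1), and 39743 of 39827 gene IDs had a symbol.

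The tools were edgeR 4.0.16 and limma 3.58.1, with DESeq2 1.42.0 for an alternative, under R 4.3.3. Genes kept by filterByExpr (15948) were scaled with TMM and tested in 1 quasi-likelihood fit of all 15 libraries (10 residual degrees of freedom), with Benjamini-Hochberg adjustment over all genes and a threshold of 0.05. For genotype, counts were summed per leukemia (17226 genes, 2 residual degrees of freedom). The scripts were tested on simulated data. Libraries of a group differed beyond counting noise and were all kept; the totals of 17441292 to 28902573 counts limit H2-M2 and H2-Q10 most.

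The 31 genes, the lists and the motifs were chosen with earlier results of these data known. Values per library are given for H2-K1, H2-D1, B2m, Tap1, Psmb8, Psmb9 and Nlrc5, and per comparison for up to 6 of the 31 genes with the largest fold change past the threshold and an average of 5 CPM or more across both groups. Up to 4 genes a list were named by smallest p. Other genes named, such as H2-M5 and Ifng, were chosen after their values were seen. Alternatives were DESeq2, other size factors, no filter, other sets of libraries, a replicate block and leaving out libraries; the comparisons of KO7 and KO3 with WT0 with PBS were added after the data were seen.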

Additional observations from a re-analysis of the deposited data

Results flagged for a closer look

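Of the 31 genes, 7 passed the threshold against WT6 in both knock-out leukemias, in opposite directions, by edgeR's 15-library fit. Their difference between KO3 and KO7 passed as well. Genes that did not pass against WT6 in both knock-outs are not counted here, whatever their signs. The share of such genes among all genes tested was not computed. Against WT6, 32.2% of all genes tested were higher and 36.7% lower in KO7, and 27.7% were higher and 32% lower in KO3. With so many genes called, the count of 7 does not by itself set the 31 genes apart. Against WT6, Nlrc5 was higher in KO3 (log2 0.25) and lower in KO7 (-0.62), a difference of 0.87. Psmb9 (0.18 in KO3 and -0.23 in KO7, difference 0.41) and Psme2 (0.25 and -0.19, difference 0.44) went the same way. H2-T24 was lower in KO3 (-0.43) and higher in KO7 (1.18), a difference of -1.61. Mr1 (-0.48 in KO3 and 0.61 in KO7, difference -1.09), H2-T23 (-0.23 and 0.08, difference -0.31) and Cd1d1 (-0.15 and 0.13, difference -0.28) went likewise. Each knock-out is 1 leukemia, so genotype and leukemia cannot be told apart in these values.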

How the results depend on the processing

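Of the 184 counts of genes called that were recomputed, 182 stayed within 1.5 times the count given. With library totals only, 7 genes in place of 12 were higher in KO7 than in WT6, and 1 in place of 3 was lower in KO3 than in WT0 with PBS. The same scaling turned Psmb8 (log2 -0.021) and Nlrc5 (-0.0017) downward with ERG-245, and it moved 19 of 35 group means in CPM by more than their SD. Leaving out 1 library at a time gave 21 to 25 higher and 2 to 3 lower with ERG-245, 9 to 12 and 14 to 15 in KO7 against WT6, 9 to 11 and 13 to 15 in KO3 against WT6, 24 to 25 and 3 to 4 in WT6 against WT0 with PBS, and 14 to 17 and 11 to 12 in KO3 against KO7. Against WT0 with PBS, KO7 had 23 to 25 and 2 to 3, and KO3 25 to 26 and 2 to 3. In KO7 against WT6, H2-D1 (log2 -0.12) and Tap1 (-0.11) passed with library totals only, and H2-D1 also without WT6 replicate 1 (log2 -0.07), WT6 replicate 2 (-0.06) or KO7 replicate 1 (-0.06). Tap1 in KO3 against KO7 did not pass with DESeq2 (0.09) nor without KO7 replicate 2 (0.08) or KO3 replicate 3 (0.05). In KO3 against WT6, Tap1 passed without WT6 replicate 2 (0.09) or KO3 replicate 2 (0.09). With ERG-245, Psmb8 passed without WT0 PBS replicate 2 (0.06).

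Across leukemias, leaving out 1 leukemia at a time left 0 of the 31 genes past the threshold, and directions turned. H2-K1 ranged over log2 -0.48 to 0.49, H2-D1 over -0.16 to 0.62, B2m over -0.12 to 0.43, Psmb8 over -0.044 to 0.46 and Nlrc5 over -0.54 to 0.34. H2-K1 was above 0 without KO7 (0.031) and without WT6 (0.49), and Nlrc5 likewise (0.34 and 0.042), whereas H2-D1, B2m and Psmb8 were below 0 without WT0 with PBS. The cause was not tested.

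Same-numbered libraries of different groups did not deviate together (r of -0.064 to 0.043 over 30 pairs of libraries, across genes). Libraries with other numbers gave r of -0.045 to 0.042 over 60 pairs. A pairing by number was thus not seen, though a weak one could be missed. With a replicate block the counts were 22 higher and 3 lower with ERG-245, 12 and 15 in KO7 against WT6, 9 and 15 in KO3 against WT6, 25 and 3 in WT6 against WT0 with PBS, and 17 and 12 in KO3 against KO7.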
